A study of Mus musculus with 92 samples.

Results

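Adar1 KO macrophages grown with 10 uM baricitinib make up 4 of the 92 libraries of the series, and they were compared with the 3 libraries of the same knockout cells grown with 0 uM. The libraries were chosen by a rule on their labels (guide, culture and dose). The study used this JAK inhibitor to test whether interferon production caused by the knockout underlies the macrophage phenotype. The experiment was read by bulk RNA sequencing of 33 mouse libraries in 10 groups. Its cells are ER-Hoxb8 cells, myeloid progenitors from an FVB mouse with Cas9 that an estrogen-dependent form of Hoxb8 keeps immature and that become macrophages once estrogen is withdrawn. The knockout cells carry the guide labelled sgRNA #1 against Adar, and the NTC cells, which carry Cas9 as well, hold a non-targeting control guide. Each group used below was differentiated for 7 days in vitro with the drug at the labelled dose, and RNA came from the adherent cells: Adar1 KO at 10 uM (n = 4), at 0 uM (n = 3) and at 0.4 uM (n = 3), and NTC at 10 uM (n = 3) and at 0 uM (n = 3). For the order of doses the other groups are used as well, labelled 0.0006 uM (n = 3 in each genotype), 0.016 uM (n = 3 in the knockout and n = 4 in NTC) and 0.4 uM in NTC (n = 4). Each genotype is 1 sorted pool of edited cells from 1 line, so every error and p-value measures the spread between wells that were differentiated separately, not between mice.

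ADAR1 converts adenosine to inosine in double-stranded RNA, and unedited RNA of the cell's own is known to set off the sensor MDA5 (Ifih1), which signals through MAVS to induce interferon beta. Interferon binds its receptor, whose kinases JAK1 and TYK2 phosphorylate STAT proteins, and a complex of STATs with IRF9 then switches on interferon-stimulated genes (ISGs). Baricitinib blocks JAK1 and JAK2 and thus acts below the interferon receptor, and it also reaches the JAKs of other cytokine receptors.

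Levels are the deposited log2 CPM (counts scaled to 1e6 per library), and 1 unit is a doubling. The lowest value of the table, -2.78, stands for 0 counts. The depth recovered from the values was 11.4, 21.5, 15.5 and 13.3 M counts (M, 1e6) in the 4 treated knockout libraries and 14, 9.98 and 14 M in the 3 untreated ones, so depth did not separate the groups. Over the 11152 genes tested (those that exceed 1 CPM in 3 or more of the 33 libraries), the treated knockout libraries correlated with each other at r of 0.964 to 0.977 and the untreated ones at 0.966 to 0.973. Between those groups r was 0.789 to 0.866, and the treated knockout libraries were closer to NTC at 10 uM (0.912 to 0.945) than to NTC at 0 uM (0.859 to 0.902). These correlations are across genes, which are not independent replicates.

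A library outside the main comparison stood apart. Adar1 KO 0.4 uM replicate 2 had 12.72 log2 CPM of Ifit3 against 0.15 and 4.08 in the other replicates of its group, and its Ifnb1 level was 6.02 where theirs were -2.78 and -2.29. It correlated with them at 0.888 and 0.891 where they reached 0.978 with each other. Since all groups share a single estimate of the spread, it widened the errors of interferon genes, and list counts of the main comparison that change without it are given with the list.

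The libraries also differed in how their values followed the GC content of transcripts, known for 10401 of the genes tested (93.3%). In the treated knockout libraries, log2 CPM relative to the gene means fell with GC, by slopes of -0.70, -0.65, -0.33 and -0.47 per 10 percentage points. In the untreated knockout libraries the slopes were 0.27, 0.28 and 0.18, and in NTC they were between 0.05 and 0.25 at 0 uM and between -0.13 and -0.004 at 10 uM. The treated knockout group was therefore below every other library of the experiment. Between 10 and 0 uM in the knockout, the median log2 fold change over 5 groups of genes of equal size by GC went from 0.52 in the lowest, through 0.35, 0.01 and -0.33, to -0.77 in the highest. The part of this trend in the results was not tested beyond fits of GC-adjusted values, which are given for some of the lists and genes described.

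**Figure D1:**
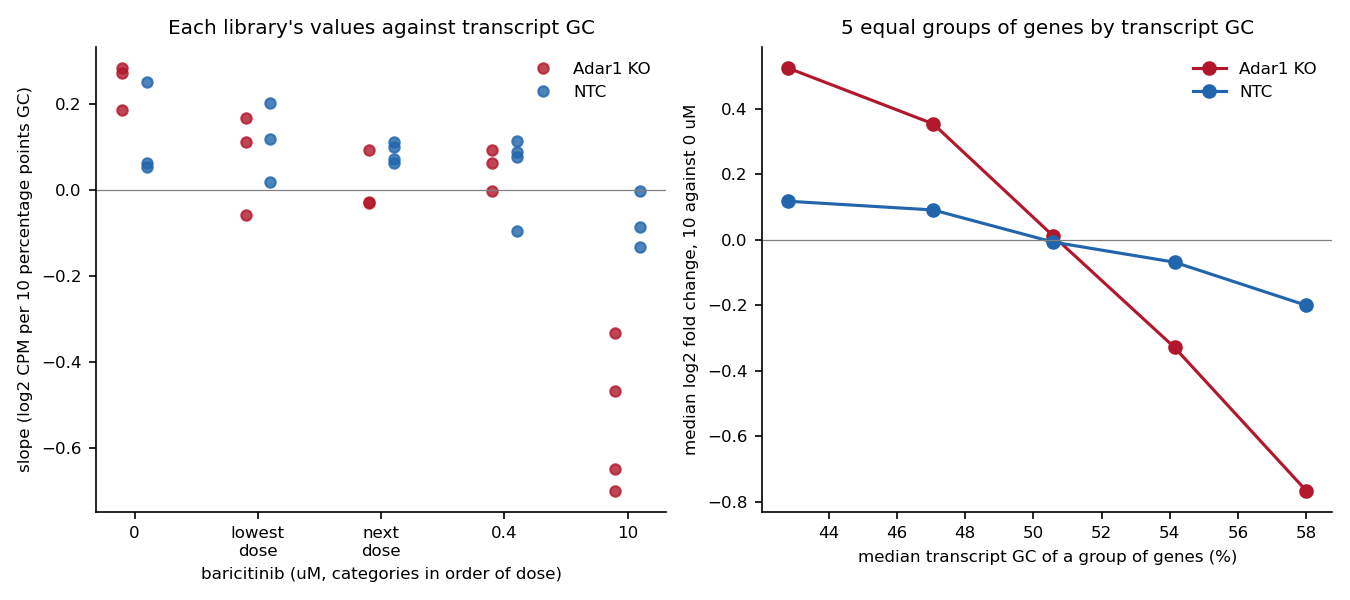
Left, the slope of each library's log2 CPM, relative to gene means, on transcript GC (per 10 percentage points), by dose and genotype, each point a library; right, the median log2 fold change of 10 against 0 uM in 5 equal groups of genes by GC. The 4 treated knockout libraries sit at -0.70 to -0.33, below all others, and the medians of the knockout fall from 0.52 to -0.77.

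The targeted gene comes before all others. Adar stood at 7.42, 6.52 and 6.37 log2 CPM in the untreated knockout and at 1.55, 2.15, 2.91 and 2.03 in the knockout at 10 uM. In NTC it stood at 5.12, 4.94 and 4.69 without the drug and at 3.70, 3.64 and 3.22 with it. Untreated knockout cells were thus the highest group and treated knockout cells the lowest, with no overlap between any of the 4 groups. Small edits made by Cas9 need not remove a transcript, and Adar has an interferon-driven promoter of its own, so its mRNA level does not check the knockout. With 10 uM the level in the knockout fell by 4.61 ± 0.45 (standard error, as in all fold changes below; adjusted p = 8.68e-10), or 24.4-fold. The fall in NTC was 1.40 ± 0.48 in size and missed the threshold (adjusted p = 0.0502), though it passed without Adar1 KO 0.4 uM replicate 2 (adjusted p = 0.000192), and the difference between genotypes was -3.21 ± 0.66 (adjusted p = 0.000369).

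In the knockout, 3780 of the 11152 genes rose and 3561 fell at an adjusted p below 0.05, which is 33.9% and 31.9% of them and 65.8% together. With a log2 fold change of at least 2 as well (differentially expressed genes, DEGs), 614 rose (5.51%) and 1021 fell (9.16%), 1635 in all (14.7%). The 4 treated libraries lay wholly above or below the 3 untreated ones for 64.4% of genes (33.4% above and 31% below), and only 21 of the 1635 DEGs had groups that overlapped. The median log2 fold change over all genes was 0.05. Over the 10401 genes with a GC value 573 rose and 949 fell as DEGs before GC adjustment, and 577 rose and 631 fell after it. Of these, 437 of the 573 and 578 of the 949 were DEGs of the same direction both times, while 568 and 936 of them kept an adjusted p below 0.05 in the same direction. Over the 147 named genes with a GC value the adjustment moved the log2 fold change by -0.58 to 0.80. Beside values given below, it left falls of 1.18 for Irf5, 1.88 for Sesn2, 2.43 for Nr1h3, 3.12 for H2-K1, 0.82 for Tnfaip2 and 0.91 for Tmem119, and rises of 0.55 for Pias1 and 2.04 for Bax. Other adjusted log2 fold changes were -1.51 for Pias3, -1.08 for Irf2, -1.40 for Hoxb8, 0.68 for Socs4 and 1.79 for Rnaseh2a.

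**Figure D2:**
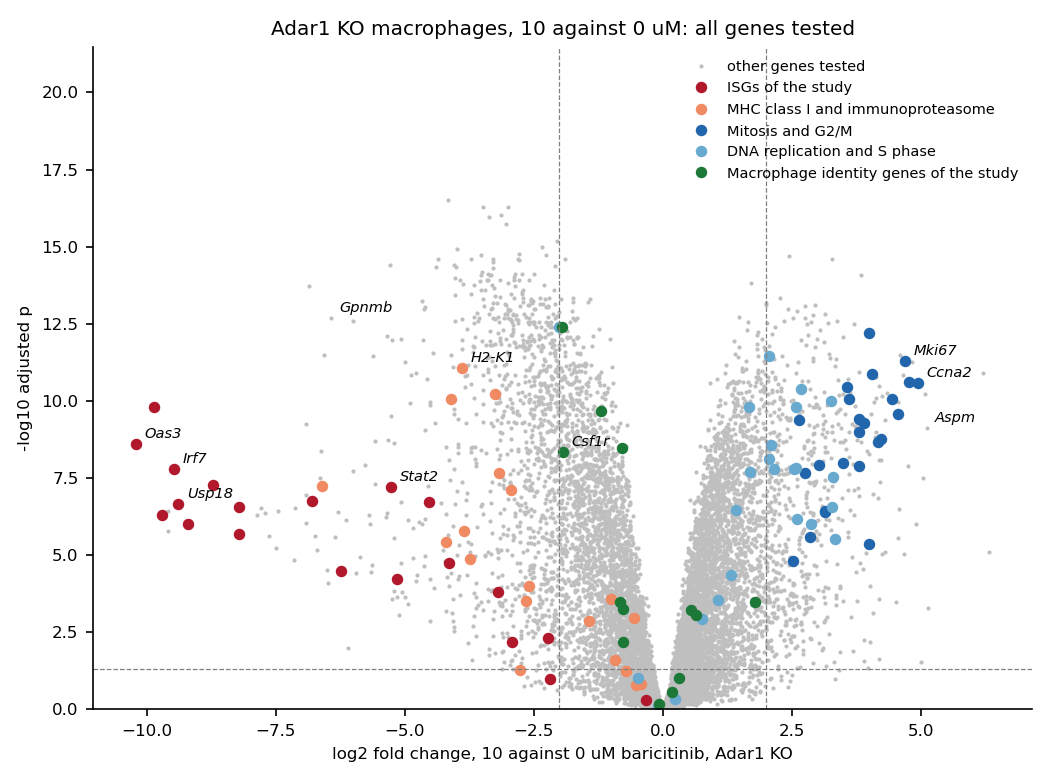
Each point is 1 of 11152 genes, with the log2 fold change of 10 against 0 uM in Adar1 KO macrophages on the x axis and -log10 adjusted p on the y axis; dashed lines mark an adjusted p of 0.05 and log2 fold changes of -2 and 2. ISGs and MHC class I genes lie to the left, down to -10.21 for Oas3, and mitosis genes to the right, with Mki67 at 4.70.

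Interferon and the receptors that sense it come next. Ifnb1, the gene of interferon beta, was measured at 0.40, -0.27 and -0.22 log2 CPM in the untreated knockout and at -2.78, that is 0 counts, in all 4 treated libraries. NTC had 0 counts in every library except 1 at 10 uM, with -2.12. Among these 4 groups Ifnb1 was therefore seen in the untreated knockout, at about 1 CPM, and at most at trace level in the other 3, and the fall in the knockout was at least 2.81-fold (adjusted p = 0.0315). That call rests on few counts: adjusted p was between 0.0506 and 0.0554 when untreated replicate 2 or 3 or treated replicate 2 was left out, it was 0.297 on log2(CPM + 1) and 0.0518 without the filter, and without Adar1 KO 0.4 uM replicate 2 the gene did not reach the filter. Of the 20 type I and III interferon ligands of the list, Ifnb1 and Ifnk were tested, and Ifnk (0.95 ± 0.54, adjusted p = 0.126) did not pass. Among 5 receptor genes tested, Ifngr2 (1.39 ± 0.17, adjusted p = 7.54e-08) and Ifnar2 (1.82 ± 0.55, adjusted p = 0.00492) rose, and the list median was 0.19 (33.9% of all genes rose). Ifnar1, Ifngr1 and Il10rb did not pass, at -0.03 ± 0.11, 0.13 ± 0.14 and 0.19 ± 0.13.

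Between receptor and nucleus, several STATs and Irf9 fell in the treated knockout. Stat2, which carries the interferon signal to ISGs, stood at 7.79, 7.74 and 7.67 log2 CPM without the drug and at 1.88, 2.85, 2.68 and 2.47 with it, beside 5.24, 4.79 and 4.80 in untreated NTC and 3.65, 3.95 and 3.77 in treated NTC. Untreated knockout cells were thus the highest group and treated knockout cells the lowest, without overlap. The fall in the knockout was 38.3-fold (-5.26 ± 0.65, adjusted p = 6.21e-08). Of the 12 tested JAK kinases, STATs and Irf9, 8 fell and 1 rose (2 without Adar1 KO 0.4 uM replicate 2), with a median of -1.96. Over all genes 31.9% fell and 33.9% rose. Irf9, which joins STAT2 in that complex, fell by 3.17 ± 0.39 (adjusted p = 5.18e-08). Of the kinases Jak3 fell by 3.07 ± 0.38, Jak1 rose by 0.44, and Jak2 (0.73 ± 0.37) and Tyk2 (0.03 ± 1.93) did not pass, all 4 named after their values were seen.

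Most other tested STATs fell too. Stat6, which serves interleukin 4, read 8.80, 8.47 and 8.39 in the untreated knockout and 4.68, 4.99, 5.44 and 5.13 in the treated one, against 8.38, 8.27 and 8.20 in untreated NTC and 7.63, 7.70 and 7.76 in treated NTC. Here the treated knockout stands alone below the other 3 groups, and the fall of 3.49 ± 0.14 (11.3-fold) had the smallest adjusted p of the list, 5.04e-17. In NTC, Stat6 fell by 0.59 ± 0.14 (adjusted p = 0.00772), and the difference between genotypes was -2.90 ± 0.20 (adjusted p = 1.37e-10). Stat5a and Stat5b, which serve growth-factor and cytokine receptors, fell by 1.98 ± 0.18 and 1.95 ± 0.13 in the knockout and by 1.09 ± 0.19 and 0.94 ± 0.14 in NTC. Their transcripts are rich in GC (57.5% and 54.0%), as is that of Stat6 (55.6%). The GC-adjusted falls of the 3 genes were smaller, and their sizes were 1.18, 1.46 and 2.81. Stat3 fell by 1.65 ± 0.23 in the knockout and Stat4 did not pass (-0.13 ± 0.30, adjusted p = 0.716), both named after their values were seen.

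Of 16 tested feedback genes of the pathway 5 rose and 5 fell, with a median of -0.17, which is near the 33.9% and 31.9% of all genes. Usp18, which removes ISG15 from proteins and restrains the interferon receptor, dropped from 8.46, 8.52 and 8.74 to -1.20, -0.76, 0.31 and -1.60, a fall of 669-fold (-9.39 ± 1.25, adjusted p = 2.25e-07). The size of that fall rests on few counts: treated replicate 4 lay below the level of 3 counts in its library (-1.43). Pias3 fell by 2.27 ± 0.25, while Pias1 and Socs4 rose by 1.01 ± 0.12 and 1.19 ± 0.16. The interferon regulatory factors moved one way: all 6 tested fell, with a median of -1.55, and 4 of them did so after GC adjustment, when Irf8 (-0.30, adjusted p = 0.462) and Irf3 were lost. Irf7, which amplifies interferon production, went from 9.31, 8.87 and 8.69 to -0.57, -0.64, -0.25 and -0.59, or 710-fold (-9.47 ± 1.08, adjusted p = 1.69e-08). Untreated NTC stood between, at 3.86, 3.07 and 3.15, and treated NTC at 0.19, 0.47 and 0.47, so the treated knockout was the lowest of the 4 groups. Irf1, Irf2 and Irf5 fell by 2.28 ± 0.42, 0.71 ± 0.16 and 1.98 ± 0.19. Irf8 fell by 1.10 ± 0.38, a call lost (adjusted p of 0.0698 and 0.0632) without untreated replicate 2 or 3.

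Of the 20 ISGs that the study follows, 18 fell and 2 did not pass, with a median of -6.52, and the range ran from -10.21 to -0.33. The study chose these genes on the same kind of knockout cells, so their direction is not independent evidence. Without Adar1 KO 0.4 uM replicate 2 the count was 19, the gene gained being Cxcl10 (adjusted p = 0.000343 in place of 0.104). For 19 of the 20 genes the treated libraries were all below the untreated ones, where 31% of all genes were. The mean of the list was 7.45 log2 CPM in the untreated knockout (SD 0.02) and 1.15 (SD 0.07) in the treated one, against 3.19 (SD 0.15) in untreated NTC and 1.04 (SD 0.10) in treated NTC.

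Several study ISGs with antiviral roles went from high levels to near the detection limit or low levels. Oas3, an RNA sensor that makes 2-5A, went from 8.70, 7.75 and 7.40 to -2.78, -2.05, -2.78 and -1.43, at most 3 counts in any treated library. In NTC it went from 4.60, 4.36 and 3.99 to -1.37, -0.30 and -1.23. In both genotypes the drug took Oas3 close to the limit of detection, so the fold in the knockout is a bound, at least 711-fold (-10.21 ± 1.05, adjusted p = 2.55e-09). Ifit3, which stabilises IFIT1 on foreign RNA, went from 9.65, 9.55 and 9.68 to -0.09, -0.24, -0.33 and 0.33, 838-fold (-9.71 ± 1.36, adjusted p = 5.25e-07), beside 1.99, 2.33 and 1.98 in untreated NTC. Rsad2, the gene of viperin, went from 7.45, 7.08 and 6.85 to -2.78, -2.09, -2.27 and -1.21, 592-fold (-9.21 ± 1.34, adjusted p = 9.93e-07), a size that rests on at most 4 counts in a treated library. Ifit1 read 8.83, 8.96 and 9.15 before and 1.26, 1.00, 0.32 and 0.48 after, and Isg15, whose product is attached to proteins like ubiquitin, read 6.74, 7.07 and 7.15 before and 1.44, 2.36, 1.60 and 1.93 after (-5.15 ± 1.01, adjusted p = 6.05e-05). Every one of these genes had its 4 treated libraries far below its 3 untreated ones.

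The promoters of these 5 genes are shown because interferon signalling reaches ISGs through the interferon-stimulated response element (ISRE). Its core, GAAANNGAA, was searched on both strands in windows from 250 bases before to 50 bases after each gene's start (RefSeq, GRCm38.p6). It is in 8.56% of all 32851 windows and in 8.86% of the 8784 tested genes with a window. It was found in 11 of the 15 study ISGs with a window (73.3%) and in 15.2% of the 801 DEGs that fell, against 9.62% of the 478 that rose. The windows of Irf7 and Oasl2, among the largest falls, hold none. A match describes letters and is not a binding site. Capitals mark the ISRE core on either strand, and matches that overlap run together, in Oas3 (chr5:120777610-120777909, minus strand), Ifit3 (chr19:34583279-34583578, plus), Rsad2 (chr12:26456403-26456702, minus), Isg15 (chr4:156200769-156201068, minus) and Ifit1 (chr19:34640639-34640938, plus).
Oas3: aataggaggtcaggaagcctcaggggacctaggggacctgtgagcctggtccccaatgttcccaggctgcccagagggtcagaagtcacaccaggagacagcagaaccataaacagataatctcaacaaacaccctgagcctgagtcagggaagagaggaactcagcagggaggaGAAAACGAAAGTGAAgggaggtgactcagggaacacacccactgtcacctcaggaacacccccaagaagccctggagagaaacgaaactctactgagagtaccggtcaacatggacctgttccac
Ifit3: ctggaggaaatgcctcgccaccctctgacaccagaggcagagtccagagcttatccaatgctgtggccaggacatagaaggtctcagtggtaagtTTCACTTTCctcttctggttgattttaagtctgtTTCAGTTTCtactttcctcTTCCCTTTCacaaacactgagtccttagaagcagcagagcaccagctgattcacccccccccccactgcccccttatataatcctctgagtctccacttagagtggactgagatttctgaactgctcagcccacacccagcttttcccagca
Rsad2: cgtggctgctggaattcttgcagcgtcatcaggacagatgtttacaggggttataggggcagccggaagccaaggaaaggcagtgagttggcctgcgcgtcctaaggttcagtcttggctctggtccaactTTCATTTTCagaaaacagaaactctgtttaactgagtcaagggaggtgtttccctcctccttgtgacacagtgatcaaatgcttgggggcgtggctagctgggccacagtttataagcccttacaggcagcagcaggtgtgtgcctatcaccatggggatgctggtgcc
Isg15: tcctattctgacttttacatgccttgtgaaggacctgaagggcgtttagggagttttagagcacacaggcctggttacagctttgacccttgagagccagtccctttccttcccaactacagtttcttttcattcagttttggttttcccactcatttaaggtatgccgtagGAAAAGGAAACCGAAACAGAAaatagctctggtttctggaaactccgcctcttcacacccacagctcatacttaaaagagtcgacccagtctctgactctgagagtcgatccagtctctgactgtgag
Ifit1: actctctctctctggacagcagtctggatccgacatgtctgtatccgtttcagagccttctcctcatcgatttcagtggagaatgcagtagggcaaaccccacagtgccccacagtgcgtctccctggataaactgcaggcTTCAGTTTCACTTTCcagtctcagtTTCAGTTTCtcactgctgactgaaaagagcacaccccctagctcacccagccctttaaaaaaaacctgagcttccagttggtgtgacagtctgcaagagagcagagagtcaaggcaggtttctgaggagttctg

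Most of the other study ISGs fell as well, with different reach. Oas1g went from 7.38, 7.39 and 7.40 to at most 3 counts in each treated library, at least 482-fold lower. Oas2 (-8.72 ± 1.07) had 0 counts in 3 treated libraries and Ifi44 (-8.22 ± 1.11) in 2, so the sizes of their falls are set by the detection limit. Ifit2 (-6.24 ± 1.16), the nucleic acid sensor Zbp1 (-6.80 ± 0.89), Oas1a (-4.54 ± 0.60), Isg20 (-2.91 ± 0.92) and the ISG15 ligase Herc6 (-2.23 ± 0.67) fell. Ifih1, which encodes MDA5, went from 6.80, 6.85 and 6.89 to 4.16, 3.75, 3.43 and 3.32, 9.10-fold (-3.19 ± 0.67, adjusted p = 0.000156). Treated knockout cells kept Ifit2 at 3.61, 3.22, 3.41 and 3.49, Herc6 at 4.87, 4.90, 4.64 and 4.76 and Oas1a at 4.52, 4.28, 4.45 and 4.36, and for each of these genes they overlapped treated NTC. The chemokine Ccl2 did not pass (-0.33 ± 0.42, adjusted p = 0.505): its 6.98, 7.03, 6.53 and 6.58 in the treated knockout overlapped its 6.94, 7.01 and 7.36 in the untreated one. Oas1a and Oas1g are close paralogs, as are Ifit3 and I830012O16Rik (Ifit3b, -9.58 ± 1.45), so reads may be split between them and their separate values are uncertain.

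**Figure D3:**
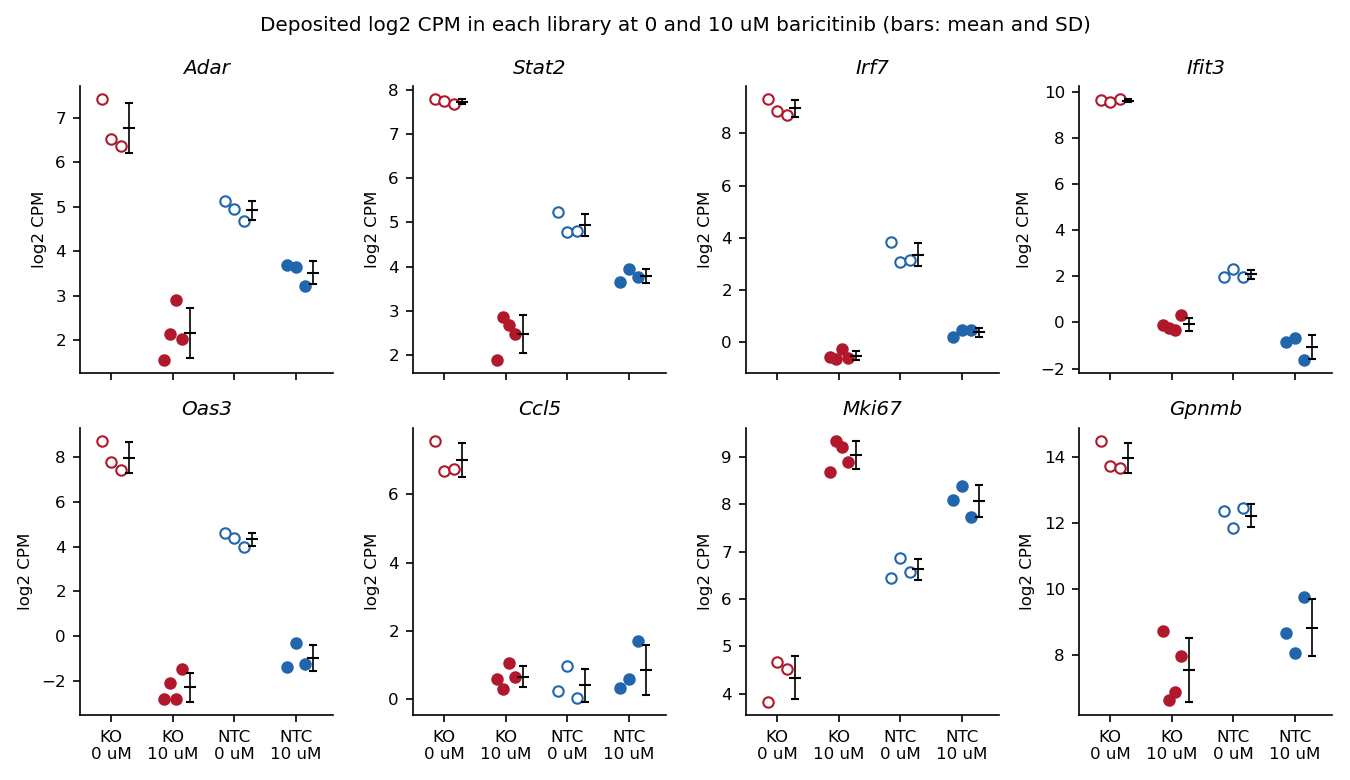
Deposited log2 CPM of 8 genes in each library of Adar1 KO and NTC macrophages at 0 and 10 uM baricitinib, with the mean and SD of each group as bars. The interferon genes fall from the highest of the 4 groups to near or below treated NTC, Mki67 rises from the lowest to the highest, and Gpnmb falls in both genotypes.

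Wider lists of antiviral genes went in the same direction, though they share members with the study's ISGs. Of 28 OAS, IFIT, Mx and other effectors, 25 fell and 1 rose, where 31.9% and 33.9% of all genes did. Their median was -4.74, or -4.11 with the 7 genes at the detection limit set to their bounds. Without the 9 study ISGs among them, 16 of 19 fell. Oasl2 fell by 9.59 ± 1.32 and Ifitm3, which blocks viral fusion, by 1.31 ± 0.16. Ifitm3 stayed abundant: 11.30, 11.27 and 11.32 without the drug and 9.98, 10.18, 9.83 and 9.98 with it. All 6 tested genes of ISG15 conjugation fell (median -2.37), 3 of them study ISGs. The other 3 include the activating enzyme Uba7 (-1.87 ± 0.31) and the ligase Trim25 (-1.63 ± 0.27). The ISRE core is in 14 of the 22 effector genes with a window (63.6%).

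Nucleic acid sensors fell less evenly. Of 20 tested, 14 fell and 2 rose, where 31.9% and 33.9% of all genes did, with a median of -2.75, and 17 fell without Adar1 KO 0.4 uM replicate 2. Dhx58 (LGP2), a helper of MDA5, fell by 3.82 ± 0.53. Mavs, the adaptor on mitochondria, read 6.91, 6.72 and 6.89 without the drug and 4.84, 4.11, 5.34 and 5.34 with it (-1.93 ± 0.16, adjusted p = 7.01e-11), and the treated knockout again stood below NTC, where values were 6.54, 6.43 and 6.46 without the drug and 6.16, 6.28 and 6.29 with it. The Mavs transcript has a GC content of 53.6%, and its GC-adjusted fall in the knockout was 1.49 in size. The 2 genes that rose are Mb21d1, which encodes the DNA sensor cGAS (1.67 ± 0.28), and Tmem173, which encodes STING (0.36 ± 0.15). Other DNA sensors fell, such as Ifi204 (-3.18 ± 0.72) and Tlr9 (-2.56 ± 0.36), and Aim2 did not pass (0.20 ± 0.32), so the DNA sensors had no shared direction. These 5 genes were named after their values were seen.

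Guanylate-binding proteins and immunity-related GTPases, which attack vacuoles that hold microbes, fell in 14 of 15 cases, where 31.9% of all genes fell. Their median was -3.96 (-3.48 with 5 genes at their bounds), and all 15 fell without Adar1 KO 0.4 uM replicate 2. Gbp6 went from 6.38, 5.88 and 5.88 to -0.21, -1.04, -1.20 and -0.30 (-6.74 ± 1.04, adjusted p = 2.39e-06). Gbp2 fell by 5.95 ± 1.12, Irgm1 by 4.21 ± 0.74, and Iigp1 fell to 0 counts in every treated library, at least 6.49-fold. Iigp1 had 0 counts in all 6 NTC libraries at 0 and 10 uM as well, so among these groups it was seen in the untreated knockout alone. The ISRE core is in 8 of the 9 genes with a window (88.9%), and in 5 of 16 genes of the class I list that follows (31.2%).

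In antigen presentation class I fell. Of 19 MHC class I and immunoproteasome genes, 15 fell and the other 4 did not pass, where 31.9% of all genes fell. Their median was -2.76, and 19 fell without Adar1 KO 0.4 uM replicate 2. H2-K1 read 11.02, 10.78 and 10.68 in the untreated knockout, 6.98, 6.66, 7.08 and 7.00 in the treated one, 8.78, 8.23 and 8.22 in untreated NTC and 7.53, 7.70 and 7.66 in treated NTC. Treated knockout cells were thus the lowest group, after a fall of 14.9-fold (-3.89 ± 0.30, adjusted p = 8.86e-12). B2m, the light chain of class I, fell by 3.26 ± 0.28. The peptide transporter gene Tap2 and the loading factor Tapbp fell by 4.10 ± 0.35 and 3.16 ± 0.37 and went below every NTC library, with 2.83, 2.55, 4.29 and 3.32 for Tap2 beside 5.72, 5.84 and 6.17 in treated NTC. Their transcripts have GC contents of 58.9% and 61.8%, and the adjusted falls were 3.30 and 2.54 in size.

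Of 7 tested MHC class II genes 2 rose and 1 fell, with a median of 0.20, where 33.9% and 31.9% of all genes did. The invariant chain Cd74 rose from 4.71, 5.21 and 5.41 to 7.11, 7.77, 7.74 and 7.45 (2.41 ± 0.22, adjusted p = 3.74e-10), above all NTC libraries, which lay between 5.56 and 6.59. H2-Ob rose from at most 3 counts, by at least 3.36-fold (adjusted p = 0.000181), and the protease Ctss fell by 1.21 ± 0.22. After GC adjustment 4 rose, and H2-DMa, at 0.36 ± 0.22 before it, was among them (1.07, adjusted p = 0.000528).

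**Figure D4:**
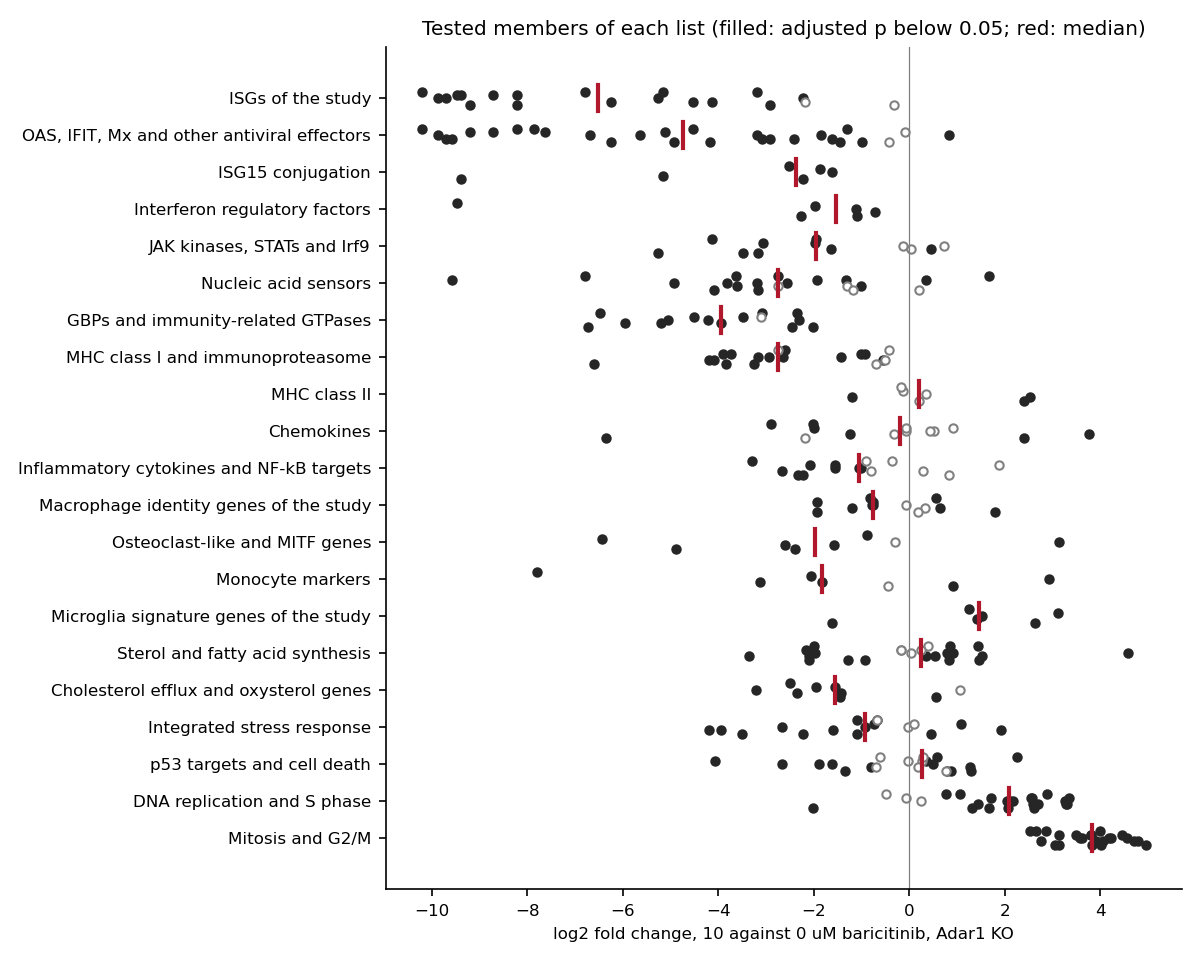
Log2 fold change of 10 against 0 uM in Adar1 KO macrophages for each tested member of 21 gene lists; points are genes (filled when adjusted p is below 0.05) and red marks are list medians. The medians of the study's ISGs (-6.52) and of class I genes (-2.76) lie left of 0. Those of mitosis and S-phase genes (3.81 and 2.08) lie right of 0, though single S-phase genes such as E2f1 (-2.02) lie left of it.

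Of 14 tested chemokines 5 fell and 2 rose (6 and 3 without Adar1 KO 0.4 uM replicate 2), where 31.9% and 33.9% of all genes did, and the median was -0.20. After GC adjustment 6 fell and 1 rose, with a median of -0.68. Ccl5, which draws T cells, read 7.58, 6.69 and 6.74 without the drug and 0.59, 0.30, 1.05 and 0.64 with it, 82.1-fold (-6.36 ± 0.99, adjusted p = 2.63e-06). In NTC it read 0.22, 0.95 and 0.02 without the drug and 0.31, 0.57 and 1.68 with it, so the treated knockout overlapped both NTC groups, and the effect differed between genotypes by -6.82 ± 1.45 (adjusted p = 0.000541). Ccl3 and Ccl4 fell by 2.00 ± 0.31 and 2.02 ± 0.37, Ccl6 by 1.24 ± 0.21 and Cx3cl1 by 2.90 ± 0.46. Cxcl10, at 1.64, 2.77 and 2.37 without the drug and 0.87, 0.65, 0.18 and -1.38 with it, did not pass with all libraries in the fit (-2.18 ± 1.17, adjusted p = 0.104). The 2 that rose, named after their values were seen, are Cxcl14, with 0 counts in the 3 untreated libraries and at least 5.12-fold higher with the drug, and Ccl12 (2.39 ± 0.88). Cxcl2, a neutrophil attractant, went from 1.11, 1.35 and 1.26 to 1.95, 2.34, 2.20 and 2.09 (0.91 ± 0.49, adjusted p = 0.107), and passed without Adar1 KO 0.4 uM replicate 2.

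Of 15 inflammatory cytokines and NF-kB targets 9 fell, with a median of -1.06, where 31.9% of all genes fell. Without Adar1 KO 0.4 uM replicate 2, 10 fell and 1 rose. Tnf read 4.86, 4.73 and 4.48 without the drug and 3.56, 3.11, 4.21 and 3.80 with it (-1.02 ± 0.28, adjusted p = 0.00246), and in NTC it did not pass (0.34 ± 0.30, adjusted p = 0.498). Csf1, the growth factor of macrophages, went from 3.82, 3.45 and 3.46 to 1.93, 1.25, 1.08 and 0.75 (-2.33 ± 0.43), which is still above all NTC libraries, where it lay between -0.78 and 0.05. Icam1 fell by 2.68 ± 0.52, Il1a by 2.23 ± 0.53 and Tnfaip2 by 1.55 ± 0.24. Il6 had 0 counts in all libraries of these 4 groups and was not tested.

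Targets of STAT3, STAT5 and STAT6, which answer to growth factors and to interleukins 4, 6 and 10, fell in 8 of 16 cases (median -1), where 31.9% of all genes fell, and after GC adjustment 7 fell and 1 rose (median -0.50). Chil3, a STAT6 target and marker of alternative activation, read 7.32, 7.34 and 7.49 before and 4.85, 4.00, 3.86 and 4.29 after (-3.13 ± 0.22, adjusted p = 1.4e-12). Its level in treated NTC was 1.24, 0.71 and 1.68, so the drug lowered it in both genotypes and left the knockout higher. The survival gene Bcl2l1 fell by 3.12 ± 0.29, the receptor Il4ra by 3.12 ± 0.37 and the cytokine Osm by 2.80 ± 0.24. In NTC these 3 genes did not pass, at -0.36 ± 0.31, -0.27 ± 0.39 and -0.52 ± 0.25, and their differences between genotypes were -2.75 ± 0.42, -2.85 ± 0.54 and -2.29 ± 0.35. Their transcripts have GC contents of 53.9%, 56.7% and 54.4%, and their adjusted falls in the knockout were 2.64, 2.35 and 2.26 in size. The differences between genotypes are given without that adjustment.

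Genes of cell division rose. All 24 mitosis and G2/M genes went up, with a median of 3.81 and all of them DEGs. Of all genes 33.9% rose, and 5.51% were DEGs that rose. After GC adjustment 24 of the list rose. Mki67, the gene of the Ki-67 antigen, read 3.83, 4.67 and 4.52 in the untreated knockout and 8.69, 9.35, 9.22 and 8.90 in the treated one, 26.0-fold (4.70 ± 0.35, adjusted p = 5.23e-12). In NTC it read 6.44, 6.88 and 6.57 without the drug and 8.09, 8.40 and 7.74 with it. The untreated knockout was thus the lowest group and the treated knockout the highest, with no overlap among the 4. Top2a, which untangles DNA, rose by 4.06 ± 0.32, the kinetochore genes Cenpe and Cenpf by 4.00 ± 0.27 and 4.78 ± 0.39, cyclin A2 (Ccna2) by 4.95 ± 0.40, and the spindle genes Aspm and Fam83d, which are not on the list, by 5.12 ± 0.49 and 5.05 ± 0.60. In NTC 19 of the 24 rose with a median of 1.40, where 5.88% of all genes rose. The effect differed between genotypes for 22 of them, all upward, with a median difference of 2.43, where 19.5% of all genes differed upward. Without Adar1 KO 0.4 uM replicate 2 these counts were 23 and 23. In bulk RNA a larger share of dividing cells and more of these transcripts per cell cannot be told apart.

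Promoters of mitosis genes are known for the cell cycle homology region (CHR), TTTGAA, and for CCAAT boxes, and both motifs were added to the search after the values were seen. On either strand, TTTGAA is in 17.9% of all windows and in 15 of the 21 mitosis genes with a window (71.4%), and CCAAT is in 37.4% of all windows and in 19 of the 21 (90.5%). For the DEGs that rose the shares were 27.4% and 54.2%, and for those that fell 13.2% and 45.1%, beside 15% and 43.9% of all tested genes with a window. Capitals mark both motifs in Cenpe (chr3:135212313-135212612, plus strand), Mki67 (chr7:135716330-135716629, minus), Top2a (chr11:99024140-99024439, minus) and Cenpf (chr1:189688037-189688336, minus), the 4 genes of the list with the smallest adjusted p. The window of Cenpe holds a CCAAT and no TTTGAA. That motif does not follow the direction of change in general: it is in 5 of 9 GBPs and GTPases, which fell (55.6%), and in 2 of 19 replication genes (10.5%), most of which rose.
Cenpe: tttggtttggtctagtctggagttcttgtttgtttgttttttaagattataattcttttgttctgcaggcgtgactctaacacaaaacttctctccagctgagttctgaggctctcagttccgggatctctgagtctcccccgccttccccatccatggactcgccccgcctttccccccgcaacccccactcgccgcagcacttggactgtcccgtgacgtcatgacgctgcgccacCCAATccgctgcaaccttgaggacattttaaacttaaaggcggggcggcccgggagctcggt
Mki67: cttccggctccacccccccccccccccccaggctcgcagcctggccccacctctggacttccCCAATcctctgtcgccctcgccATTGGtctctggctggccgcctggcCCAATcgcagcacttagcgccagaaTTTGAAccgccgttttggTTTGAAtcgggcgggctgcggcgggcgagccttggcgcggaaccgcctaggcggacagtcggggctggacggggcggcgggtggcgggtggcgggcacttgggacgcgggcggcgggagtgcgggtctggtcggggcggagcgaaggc
Top2a: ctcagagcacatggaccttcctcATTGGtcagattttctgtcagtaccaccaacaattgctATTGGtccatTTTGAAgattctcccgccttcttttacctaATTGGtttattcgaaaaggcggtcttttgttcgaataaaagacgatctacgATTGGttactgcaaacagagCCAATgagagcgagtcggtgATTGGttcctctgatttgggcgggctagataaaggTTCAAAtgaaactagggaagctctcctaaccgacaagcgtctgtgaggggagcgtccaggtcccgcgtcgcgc
Cenpf: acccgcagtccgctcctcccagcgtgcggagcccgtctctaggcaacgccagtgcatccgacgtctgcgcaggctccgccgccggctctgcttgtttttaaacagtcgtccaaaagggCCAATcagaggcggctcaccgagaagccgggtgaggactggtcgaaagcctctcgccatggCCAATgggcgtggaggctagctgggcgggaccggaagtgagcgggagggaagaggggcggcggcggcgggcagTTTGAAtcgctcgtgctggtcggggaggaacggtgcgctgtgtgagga

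Replication genes followed: of 24 genes of DNA replication and S phase 20 rose and 1 fell (2 without Adar1 KO 0.4 uM replicate 2). Their median was 2.08, and over all genes 33.9% rose and 31.9% fell. Tyms, the thymidylate synthase, rose from 3.77, 4.22 and 4.43 to 7.20, 7.76, 7.26 and 7.41 (3.27 ± 0.28, adjusted p = 1.01e-10), Gins1, part of the replicative helicase, rose by 2.69 ± 0.22, and Slbp, which binds histone mRNA, by 2.07 ± 0.15. The gene that fell is E2f1, a transcription factor of S-phase entry, at 5.38, 5.47 and 5.38 before and 3.29, 3.01, 3.47 and 3.80 after (-2.02 ± 0.13, adjusted p = 4.16e-13). Its transcript has a GC content of 58.1%, and the adjusted fall was 1.21 in size. The largest rise of all DEGs without overlap was that of a histone gene, Hist1h2ap (6.33 ± 1.06), and Hist1h2ag, at 0 counts without the drug, was at least 11.4-fold higher, but these genes occur in near-identical copies, and their separate values are uncertain. Cdkn1a, the p21 inhibitor of the cell cycle, rose at the same time, from 6.97, 7.80 and 7.94 to 9.49, 10.24, 9.92 and 9.60 (2.24 ± 0.23, adjusted p = 2.79e-09).

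The cells carried macrophage markers in both groups. The summed level of the 13 macrophage identity genes of the study was 11687 to 14313 CPM in the untreated knockout and 10763 to 12284 CPM in the treated one, with Cd14 the most abundant in all 4 treated libraries. Of the 13, 7 fell and 3 rose (4 without Adar1 KO 0.4 uM replicate 2), with log2 fold changes between -1.94 and 1.78 and a median of -0.76, where 31.9% and 33.9% of all genes fell and rose; the study chose this list too. Csf1r, the CSF1 receptor, read 10.62, 10.65 and 10.59 before and 7.98, 8.51, 9.37 and 8.90 after (-1.93 ± 0.21, adjusted p = 4.57e-09), whereas treated NTC kept 10.59, 10.99 and 10.43. Emr1 (F4/80) fell by 1.94 ± 0.13, Tlr4 by 1.20 ± 0.11, Cx3cr1 by 0.83 ± 0.19, Trem2 by 0.79 ± 0.08, Itgam by 0.76 ± 0.18 and Mertk by 0.76 ± 0.24. Aif1 (IBA1) rose by 1.78 ± 0.40, Cd14 by 0.65 ± 0.16 and Msr1 by 0.56 ± 0.13, while Cd68 (-0.06 ± 0.12), Fcgr3 (0.32 ± 0.17) and Ptprc (0.18 ± 0.14) did not pass. Emr1 has no GC value, and of the other 12 genes 6 fell and 3 rose before GC adjustment (median -0.41) and 5 fell and 4 rose after it (median -0.12), where 32.1% and 33.4% of all genes did: the fall of Trem2 was gone (0.0022, adjusted p = 0.987), Csf1r still fell (-1.27, adjusted p = 3.72e-07), and Cd68 rose (0.36, adjusted p = 0.0333). The adjustment also took away the rise of Msr1 (0.07, adjusted p = 0.579), and Fcgr3 rose after it (0.47, adjusted p = 0.0241). Fcgr3 passed as well without Adar1 KO 0.4 uM replicate 2 (adjusted p = 0.00977). Mertk lost its call without untreated replicate 1 (-0.48, adjusted p = 0.102).

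Markers of other cell types were checked over whole lists. The 10 non-macrophage genes of the study summed to 0.0883 to 0.299 CPM in the treated libraries, with 8 of them at 0 in all 4, and each of the 10 mast cell and 13 lymphocyte markers stayed below 1 CPM in both groups, with lymphocyte sums of 0.561 to 0.939 CPM before and 0.737 to 1.15 CPM after. Neutrophil and granule markers summed to 280 to 286 CPM in the untreated and 92.7 to 177 CPM in the treated libraries, with Csf3r the most abundant before (mean 205 CPM) and S100a8 after treatment and 5 of 15 at 0 in every treated library. Among 6 tested, Csf3r, the receptor of G-CSF, fell from 7.66, 7.67 and 7.71 to 3.80, 2.98, 3.86 and 3.96 (-4.03 ± 0.23, adjusted p = 3.6e-14), Mmp9 fell by 2.40 ± 0.26, Cebpe rose by 1.47 ± 0.47, and Camp (-1.07 ± 0.50), S100a8 (0.68 ± 0.39) and Mmp8 (0.60 ± 0.34) did not pass. Thus 2 of the 6 fell and 1 rose, where 31.9% and 33.9% of all genes did, so the list did not stand out by its counts. Without Adar1 KO 0.4 uM replicate 2, 3 of the 6 fell. Dendritic cell markers summed to 158 to 321 CPM before and 91.0 to 151 CPM after, nearly all of it Irf8, and Itgax (-0.44 ± 0.24) and Zbtb46 (0.48 ± 0.41) did not pass, though after GC adjustment Itgax fell (-0.56, adjusted p = 0.0476), Zbtb46 rose (0.94, adjusted p = 0.0436) and the fall of Irf8 was lost. Their part in the results was not tested.

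Monocyte and progenitor markers moved in both directions. Of 7 tested monocyte genes 4 fell and 2 rose, with a median of -1.84, where 31.9% and 33.9% of all genes did, and 5 fell and 1 rose after GC adjustment (median -2.11). Ly6c2 fell from 8.85, 8.37 and 8.31 to 7.02, 6.32, 6.09 and 6.38 (-2.06 ± 0.39, adjusted p = 4.35e-05) and remained above all NTC libraries, which lay between 4.20 and 4.59. Plac8 fell by 7.79 ± 1.06, 222-fold, and F13a1, the gene of a clotting factor subunit, rose from 7.52, 8.09 and 8.39 to 11.06, 10.62, 11.01 and 10.98 (2.92 ± 0.22), so that F13a1 made up most of the monocyte sum of 1729 to 2321 CPM after treatment. Before treatment that sum was 868 to 953 CPM, with Ly6c2 the most abundant. Progenitor markers summed to 406 to 515 CPM before and 142 to 151 CPM after, with Cd93 the most abundant both times. Of 4 progenitor markers tested, Cd93 fell by 2.08 ± 0.16 and Cd34 rose from -0.09, 0.89 and 1.69 to 3.43, 3.61, 3.61 and 3.86 (2.80 ± 0.35, adjusted p = 8.93e-08). Hoxb8, whose conditional form holds the cells immature, fell to at most 3 counts in the treated libraries, at least 3.16-fold lower, and Myc did not pass (0.04 ± 0.18, adjusted p = 0.873), though it rose after GC adjustment (0.76, adjusted p = 0.000771).

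Osteoclast-like and MITF genes, which cultured macrophages can switch on, fell in 6 of 8 cases (median -1.98), where 31.9% of all genes fell. Gpnmb, a glycoprotein of lysosomes and melanosomes, stood at 14.49, 13.74 and 13.66 in the knockout without the drug, and at 8.71, 6.62, 6.86 and 7.95 with it, 86.2-fold lower (-6.43 ± 0.40, adjusted p = 2.04e-13). In NTC it went from 12.37, 11.83 and 12.46 to 8.66, 8.05 and 9.75, a fall of 3.40 ± 0.43 (adjusted p = 5.66e-06), so the drug lowered it in both genotypes and the difference was -3.03 ± 0.59 (adjusted p = 0.000219). Atp6v0d2, a proton pump subunit of osteoclasts, fell by 4.89 ± 0.38 in the knockout and by 3.93 ± 0.41 in NTC, a difference that did not pass (adjusted p = 0.182), and Nfatc1, the regulator of osteoclast fate, by 1.57 ± 0.24 in the knockout. The gene that rose, Dcstamp, from 0 counts and by at least 3.30-fold (adjusted p = 0.000239), was named after its values were seen.

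Of 23 sterol and fatty acid synthesis genes 10 rose and 8 fell, with a median of 0.24, and 9 rose and 9 fell after GC adjustment, which is near the shares of all genes. Fdps, which makes farnesyl diphosphate on the way to cholesterol, rose from 5.72, 5.58 and 5.75 to 7.45, 7.25, 6.89 and 7.25 (1.53 ± 0.14, adjusted p = 1.59e-10). Dhcr7, an enzyme of the last steps of cholesterol synthesis, fell from 5.95, 5.64 and 5.45 to 3.31, 3.15, 4.02 and 3.60 (-2.16 ± 0.18, adjusted p = 7.15e-11). In NTC the change of Dhcr7 did not pass (0.05 ± 0.20), and the difference between genotypes was -2.21 ± 0.27. Of 9 cholesterol efflux and oxysterol genes 7 fell and 1 rose, with a median of -1.57, where 31.9% and 33.9% of all genes did. The liver X receptors Nr1h3 and Nr1h2 fell by 3.21 ± 0.30 and 2.36 ± 0.19, the lipase Lpl by 2.51 ± 0.15 and Soat1 by 1.57 ± 0.15. Lpl also fell in NTC, from 11.55, 11.73 and 11.82 to 9.62, 9.93 and 9.81, and was lowest in the treated knockout, at 6.70, 7.19, 7.37 and 6.89.

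Of 17 integrated stress response genes 11 fell and 3 rose, with a median of -0.93 (12 and 3 without Adar1 KO 0.4 uM replicate 2), where 31.9% and 33.9% of all genes did. Ddit3 (CHOP), a transcription factor of that response, read 7.07, 6.84 and 6.98 before and 3.75, 3.48, 3.10 and 3.44 after, 11.4-fold (-3.52 ± 0.47, adjusted p = 2.53e-07), beside 4.22, 3.95 and 4.04 in untreated NTC. Atf3 fell by 4.20 ± 0.44 and Sesn2 by 2.68 ± 0.26, while Psat1, an enzyme of serine synthesis, rose by 1.91 ± 0.20. After GC adjustment 6 fell and 2 rose, near the 32.1% of all genes that fell then, and those 4 genes kept their calls. Of 12 immediate early genes 7 fell and 3 rose (4 and 3 after the adjustment, again near the share of all genes), with Fos at -1.61 ± 0.13, Junb at -2.92 ± 0.59 and Ier3 at -1.80 ± 0.25. Of 21 p53 targets and cell death genes 8 rose and 6 fell, with a median of 0.26, near the shares of all genes (9 and 7 without Adar1 KO 0.4 uM replicate 2, and 4 and 7 after the adjustment). Bax, which opens mitochondria in apoptosis, rose by 1.29 ± 0.13, and Bcl2l11 (BIM) fell by 1.90 ± 0.14.

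A few lists tie the cells to the disease and to microglia. Of the 7 coding genes that the study lists as causes of Aicardi-Goutieres syndrome, 4 fell, Adar and Ifih1 among them, and 3 rose (65.8% of all genes passed in either direction). Those that rose are the subunits of RNase H2, with Rnaseh2a at 1.10 ± 0.13 and Rnaseh2b at 1.22 ± 0.19. Of 6 tested microglia signature genes of the study 5 rose and 1 fell, where 33.9% and 31.9% of all genes did, with a median of 1.46 (4 and 1 after GC adjustment, with a median of 0.99). Gpr34, a receptor for lysophosphatidylserine, rose from 5.12, 5.80 and 6.13 to 7.43, 7.29, 6.70 and 6.95 (1.41 ± 0.29, adjusted p = 0.000122), and Fcrls rose by 2.62 ± 0.61. After GC adjustment the rise of Gpr34 was 0.84 (adjusted p = 0.0149). The gene that fell is Tmem119, from 7.75, 8.28 and 8.45 to 6.20, 5.83, 7.31 and 6.83 (-1.62 ± 0.23, adjusted p = 4.83e-07). Of 13 genes encoded by mitochondria 9 rose, where 33.9% of all genes did, with a median of 0.62 and mt-Cytb highest (1.97 ± 0.15). But these transcripts are poor in GC (median 37.1%). After adjustment 3 rose and 3 fell, where 33.4% and 32.1% of all genes did, with a median of 0.04.

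The largest rises outside the lists belonged to genes of varied roles. Cdhr3, a cadherin, went from at most 3 counts to 3.33, 4.51, 4.21 and 4.00, at least 41.7-fold higher (6.21 ± 0.48, adjusted p = 1.21e-11), and it rose in NTC as well (3.67 ± 0.52, adjusted p = 2.15e-05). Among the groups at 0 and 10 uM, Wbp5 and St3gal5, a sialyltransferase that makes the ganglioside GM3, were near the limit of detection in the untreated knockout alone. Wbp5 read -1.47, -2.78 and -1.34 there, 3.43, 3.62, 2.99 and 2.84 in the treated knockout and 4.25, 4.48 and 4.35 in untreated NTC. St3gal5 read -1.77, -0.53 and -1.21, then 3.13, 4.37, 3.71 and 3.46, and 4.06, 4.75 and 4.26 in untreated NTC. At 10 uM both were lower in the knockout than in NTC, with log2 fold changes of -2.03 ± 0.43 and -1.68 ± 0.36 (adjusted p = 0.000341 and 0.00038). Tdp2, a DNA repair enzyme, rose by 5.14 ± 1.21.

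The same dose in NTC cells changed fewer genes. There 656 genes rose and 886 fell at an adjusted p below 0.05 (5.88% and 7.94%, 13.8% together), and 18 rose and 75 fell as DEGs (0.161% and 0.673%, 0.834% together). Without Adar1 KO 0.4 uM replicate 2, which shares the fit but not the comparison, 1073 rose and 1255 fell at that adjusted p. Without NTC 0 uM replicate 1 the DEGs were 61, and on log2(CPM + 1) they were 43. Of the 20 study ISGs 6 fell in NTC with all libraries, and 15 did without Adar1 KO 0.4 uM replicate 2. Of the 93 DEGs of NTC, 61 were DEGs of the same direction in the knockout, where 14.7% of all genes tested were DEGs in either direction. These 61 are 3.73% of the 1635 knockout DEGs. Across genes the log2 fold changes of the genotypes, which share no library, correlated at r = 0.65, given as a description with no p. The median size of change was 0.80 in the knockout and 0.30 in NTC. Of the 1635 knockout DEGs, 563 also passed the adjusted p in NTC with the same sign and 2 with the opposite sign.

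Tested as a difference, the effect of 10 uM was not the same in knockout and NTC for 4403 genes (39.5%), of which 2173 were more positive in the knockout (19.5%) and 2230 more negative (20%). Of the 20 study ISGs, 13 were more negative in the knockout, as were 13 of 19 class I genes, 10 of 15 GBPs and GTPases and 18 of 28 antiviral effectors. Without Adar1 KO 0.4 uM replicate 2 these counts were 19, 18, 14 and 25, while 2452 of all genes were more positive and 2525 more negative. Most negative were I830012O16Rik (-8.12 ± 2.12), Ifi44 (-7.80 ± 1.62), the surface protein Ly6a (-7.40 ± 1.41), Ms4a4c (-6.88 ± 1.80) and Ccl5. Ly6a shows the pattern: it read 6.69, 6.98 and 6.98 in the untreated knockout, -0.81, 0.26, -0.78 and 0.36 in the treated one, and between -2.23 and -0.15 in all NTC libraries. On the positive side were Rpl10a-ps1 (6.96 ± 2.34), Pfkfb4 (6.27 ± 2.28), Tdp2 (6.24 ± 1.77), Gm10033 (6.10 ± 1.86) and Fam105a (6.05 ± 1.77), where replicates of a group differed widely. Rpl10a-ps1, for example, read -1.12, 2.96 and -2.31 in the untreated knockout and 0.64, 4.08 and -2.27 in treated NTC. The change of Pfkfb4 within the knockout did not pass (3.41 ± 1.55, adjusted p = 0.0554, or 0.0487 without Adar1 KO 0.4 uM replicate 2). Rpl10a-ps1 and Gm10033 are likely to share reads with near-identical genes, their rise in the knockout was lost when single untreated libraries were left out (Rpl10a-ps1 without replicate 1 or 3, with adjusted p of 0.0841 and 0.133, and Gm10033 without replicate 1 or 2, with 0.0521 and 0.0512), and that of Fam105a was lost without replicate 3 (0.116).

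The distance from NTC before and after treatment can be set side by side, though these comparisons share libraries with the main one. Without the drug, 19 of the 20 study ISGs were higher in the knockout (11.5% of all genes were, and 25.3% differed in either direction), with a median of 3.76, and at 10 uM, where 45.3% of all genes passed in either direction, limma called 0 of the 20 (1 at an unadjusted p below 0.05), with a median of 0.10. That 0 rests on the errors that Adar1 KO 0.4 uM replicate 2 widened: without it 20 of the 20 were higher at 0 uM, and at 10 uM 7 passed, where 50.6% of all genes did. Of these 7, Ccl2 (0.88 ± 0.18, adjusted p = 0.000176), Ifit1 (1.27 ± 0.39, adjusted p = 0.0078), Isg20 and Zbp1 were higher in the knockout, and Stat2 (-1.32 ± 0.16, adjusted p = 9.38e-08), Oas3 and Irf7 were lower. Treated knockout cells were thus above treated NTC for some ISGs and below it for others, with differences from -1.32 to 1.27. Ifit3 was 7.53 ± 1.46 higher in the knockout without the drug and 0.97 ± 1.36 higher with it (adjusted p = 0.00032 and 0.594), and Irf7 was 5.60 ± 1.16 higher and then -0.89 ± 1.08 (adjusted p = 0.534, or 0.0498 without that library). Of the 24 mitosis genes, 21 were lower in the knockout at 0 uM (13.7% of all genes were), with a median of -1.75, and 10 were higher at 10 uM, where 21.5% of all genes were and 23.9% were lower, with a median of 0.85. Without that library 24 were lower at 0 uM and 16 higher at 10 uM. Genes further from NTC at 10 than at 0 uM include Stat6 (0.27 ± 0.14 at 0 uM and -2.64 ± 0.14 at 10 uM), Csf1r (0.06 ± 0.22 and -1.98 ± 0.21) and Tap2 (0.64 ± 0.38 and -2.66 ± 0.35). Their transcripts are rich in GC (55.6%, 55.3% and 58.9%), and the treated knockout libraries had the lowest GC slopes of the experiment. No GC-adjusted values are given for these differences between genotypes. Over all genes, 432 were DEGs between the genotypes at 0 uM (3.87%; 214 up and 218 down in the knockout, 1.92% and 1.95%) and 350 at 10 uM (3.14%; 83 up and 267 down, 0.744% and 2.39%).

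The highest dose was also set against the lower ones. Against 0 uM, the knockout had 7, 17, 215 and 1635 DEGs in order of dose, and 8, 18, 477 and 1641 without Adar1 KO 0.4 uM replicate 2, so the count at 0.4 uM depends on that library. The study's protocols give other values than the labels for the doses labelled 0.0006 and 0.016 uM, so these are called the lowest dose and the next one. The mean of the study's ISGs in the knockout was 7.45 log2 CPM at the lowest dose and 7.62 at the next, against 7.45 at 0 uM, and at 0.4 uM it was 1.78, 10.08 and 3.29 in the single libraries, the middle value being the library that stood apart. At 10 uM the 4 libraries lay between 1.09 and 1.22. Directly against 0.4 uM, 10 uM gave 162 DEGs up and 502 down (1.45% and 4.5%, 5.95% together), and 75 and 376 without the outlying library. With all libraries, 24 of 24 mitosis genes were higher at 10 than at 0.4 uM (25.8% of all genes were, and 28.4% were lower), with a median of 2.31, and 22 were without the outlying library. Stat6 was lower by 3.04 ± 0.14 on the same scale (log2 fold change -3.04).

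**Figure D5:**
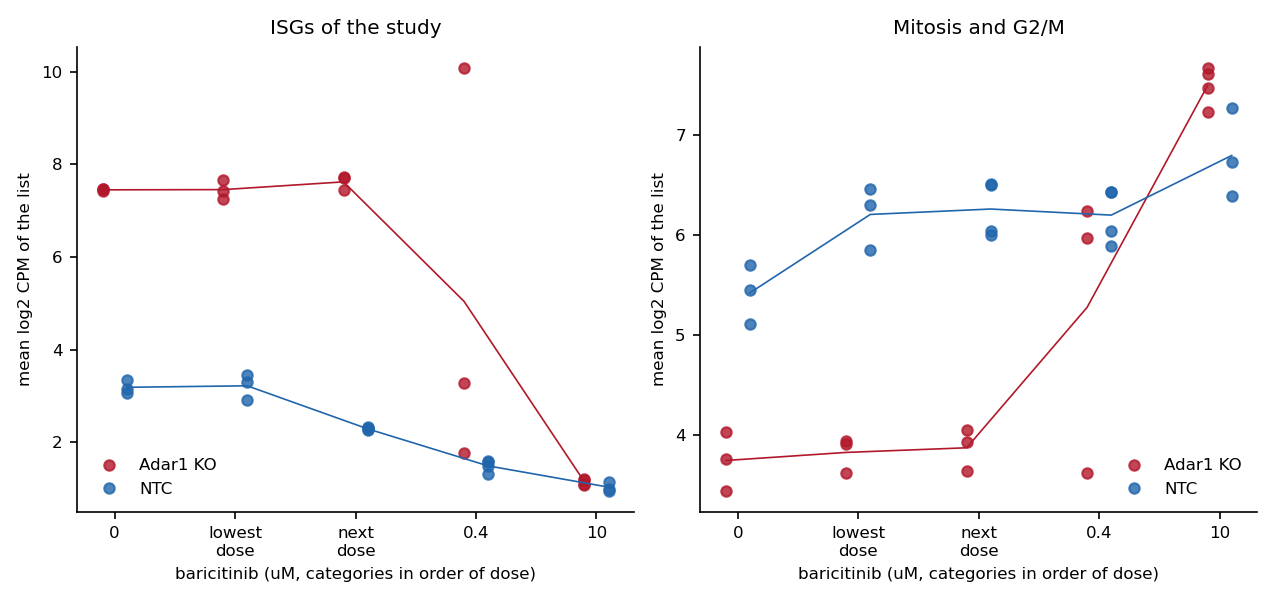
Mean log2 CPM of the 20 ISGs of the study (left) and of 24 mitosis genes (right) in each library against baricitinib dose, in order of dose and not to scale, for Adar1 KO (red) and NTC (blue); lines join group means. In the knockout the ISG mean is 7.45 at 0 uM and 1.15 at 10 uM, with the replicates at 0.4 uM far apart, and the mitosis mean goes from 3.75 to 7.50.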

How the data were processed

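Bulk RNA sequencing of ER-Hoxb8 macrophages was taken from the table of normalized values that the authors deposited. The authors quantified reads with kallisto 0.46.0, summarised transcripts to genes, normalized with TMM of edgeR and deposited log2 CPM; counts were not used here. CPM were recovered with a prior count of 2 as the difference between the antilogs of a value and of the lowest value, and depth from the most frequent step among the low CPM of a library; floors (3 counts) cover counting error only. Of its 29957 lines, the only one without a gene name was dropped (0.00226% to 0.0127% of the CPM of a library).

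A limma model (version 3.58.1, R 4.3.3) with the means of the 10 groups and a trended eBayes was fitted to the log2 values of the 33 baricitinib libraries, with Benjamini-Hochberg adjustment over the 11152 genes that exceed 1 CPM in 3 or more libraries. A DEG has a log2 fold change of 2 or more in size and an adjusted p under 0.05. Tests are two-sided. Lists are described by counts at adjusted p below 0.05 and by medians. The scripts were tested on simulated data. Tables and figures used Python 3.11.15, numpy 2.4.6, pandas 2.3.3 and matplotlib 3.10.9.

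Named genes are Adar, the genes the study's text names for the experiment, its 20 ISGs and 13 macrophage genes, up to 4 tested members of each list with the smallest adjusted p, the 10 DEGs with the largest rises and the 10 with the largest falls whose groups do not overlap, and the 5 largest differences between genotypes in each direction. The libraries, members and lists were chosen with earlier results of these data known. Replicate numbers do not pair the libraries: after removal of group means, treated and untreated knockout libraries of the same number correlated at -0.06, -0.003 and -0.10.

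Alternatives were the offset, the filter, the fold limit, quantile and median scaling, the trend, array weights, the libraries in the fit, a replicate block and leaving out each library. Leaving out Adar1 KO 0.4 uM replicate 2 and adjusting for GC were chosen after seeing the data. For the latter, a spline with 4 degrees of freedom on the GC of the gene's transcripts was removed from each library's deviations from the gene means. A few genes that the rule names are not reported here.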

Additional observations from a re-analysis of the deposited data

Results flagged for a closer look

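In the treated knockout group of 4 libraries, 7 of 153 named genes had a library far from the other 3, where chance alone gives about 5% of groups. Replicate 2 was the library in question for Csf3r (2.98 log2 CPM, the others 3.80 to 3.96), Fam83d (2.90, the others 4.04 to 4.11), Mmp9 (0.58, the others 1.20 to 1.26) and Rnaseh2a (6.06, the others 5.73 to 5.77). H2-Ob was high in replicate 1 (0.84, the others 0.20 to 0.25). Oas1g was above 0 counts in replicate 3 alone (-1.58) and Oas2 in replicate 4 alone (-1.13).

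The effect of 10 against 0 uM differed between Adar1 KO and NTC for 4403 genes by the test of the difference itself. Among the named genes that the study's text or the size of the difference selects, it was more negative in the knockout for Adar (-3.21), Ccl4 (-1.67), Ccl5 (-6.82), Csf1 (-2.77), I830012O16Rik (-8.12), Ifi44 (-7.80), Ly6a (-7.40), Ms4a4c (-6.88) and Tnf (-1.36). It was more positive for Fam105a (6.05), Gm10033 (6.10), Pfkfb4 (6.27), Rpl10a-ps1 (6.96) and Tdp2 (6.24). The causes of these differences were not tested.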

How the results depend on the processing

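The number of DEGs of 10 against 0 uM in the knockout, 1635, stayed between 1128 and 1749 under every setting but the lower fold limit (log2 fold change of at least 1), which gave 4296. Leaving out a library gave 1477 to 1749. With a replicate block it was 1687, and 1630 with the block in a fit of the 7 libraries. Genes past the adjusted p ranged from 6186 (7 libraries with the block) to 7662, and those whose effect differed between genotypes from 3708 to 5380.

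Other counts moved by more than 1.5 times. On log2(CPM + 1), DEGs were 43 in NTC, 426 for 10 against 0.4 uM in the knockout, 250 between genotypes at 0 uM and 152 at 10 uM. With a mean CPM above 5 they were 52 in NTC, 263 at 0 uM and 218 at 10 uM, and with array weights 419 for 10 against 0.4 uM. With the lower fold limit they were 491 in NTC, 2848 for 10 against 0.4 uM, 1259 at 0 uM and 1890 at 10 uM. Leaving out a library gave 61 (without NTC 0 uM replicate 1) to 110 in NTC, 451 to 914 for 10 against 0.4 uM, 393 to 470 at 0 uM and 296 to 406 at 10 uM. The cause was not tested, except that a higher offset or filter removes or shrinks weakly expressed genes by construction.

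The median of the study's ISGs, -6.52, was -5.96 on log2(CPM + 1), -6.39 with quantile normalization, -6.44 with libraries centred on their median and -6.60 after GC adjustment, and -6.56 to -6.47 without single libraries. Quantile normalization and centring put the median of all genes at 0.12 and 0.13 in place of 0.05. Of 153 named genes tested, 138 passed the adjusted p, and 21 changed call in at least 1 of 19 alternatives. Cd68 (0.36) and Trem2 (0.0022) changed sign after GC adjustment, and Msr1 and mt-Nd6 lost their calls (0.07 and 0.22). Without single libraries or in the fit of 7 libraries with the block, Mertk lost its call, and so did Msr1 in the latter. Limits are the unit of replication (wells of 1 line), 3 or 4 libraries a group, the depth of 9.98 to 21.5 M counts, under which genes below about 1 CPM were not tested, and the GC trend that separates the treated knockout libraries.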
